A study of Mus musculus with 64 samples.

Results

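A set of 9 genes of the myelin sheath was followed through striatal punches of 16 mice: Mbp, Mog, Mag, Mobp, Cnp, Mal, Cldn11, Opalin and Ermn. They were chosen by name as 9 of the 23420 genes in the count tables, and all 9 passed the low count filter that left 15446 genes for testing. The mice were untreated and about 50 days old, 8 labelled Csnk1e knockout (KO1 to KO8) and 8 labelled wild type (WT1 to WT8). Csnk1e encodes casein kinase 1 epsilon, and the series compared striatal gene expression with and without it. Tissue from the left and right striatum of a mouse was pooled, and its poly(A) RNA was sequenced on 4 lanes that were summed here. No source used here gives the strain, the sex or which part of Csnk1e the deletion removed.

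Myelin is the stack of membrane that oligodendrocytes wrap around axons, and in the striatum it is concentrated in the fibre bundles that cross the tissue from the cortex. Its proteins have separate places in the sheath: some zip the inner membrane faces together, some seal or line its edges, and others face the axon or the outside. The transcription factors SOX10 and MYRF switch on many of these genes as an oligodendrocyte matures.

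Libraries held 22088005 to 30238947 gene reads. Counts of the 4 lanes of a mouse differed by little more than sampling noise, with a chi-square of 1.00 to 1.03 per degree of freedom, against 6.20 to 37.2 for 56 pairs of mice with the same label. The labelled genotype did not match the level of Csnk1e, given in CPM, reads scaled to the same total in each library. It stood at 72.2 to 79.5 CPM in KO1 to KO5 and at 38.0 to 44.6 CPM in KO6 to KO8. It stood at 42.1 to 44.9 CPM in WT1, WT2, WT3 and WT8, and at 72.2 to 86.2 CPM in WT4 to WT7. Every group is therefore named by its label, and a direction between labels is not a direction of Csnk1e loss. KO1 and WT7 stood highest in choroid plexus and ependymal genes, with mean deviations of 2.04 and 2.70 on the log2 scale. The other libraries ran from -1.36 (KO2) to 0.49 (WT3).

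The stretches before the transcription start are shown for the 4 members in which the core letters of a SOX binding site, ACAAAG or its reverse complement CTTTGT, were found. Matches were searched in the 250 bases before the start in RefSeq annotation on GRCm38.p6, which covered 8 of the 9 members. Mag has 3 starts there, and the first is shown. The first 200 bases of each window are printed in the gene's own direction, with SOX cores in capitals. Mobp is on the plus strand at chr9:120149492-120149691, Cnp on the plus strand at chr11:100574689-100574888, Mag on the minus strand at chr7:30914914-30915113 and Opalin on the minus strand at chr19:41077164-41077363.
Mobp: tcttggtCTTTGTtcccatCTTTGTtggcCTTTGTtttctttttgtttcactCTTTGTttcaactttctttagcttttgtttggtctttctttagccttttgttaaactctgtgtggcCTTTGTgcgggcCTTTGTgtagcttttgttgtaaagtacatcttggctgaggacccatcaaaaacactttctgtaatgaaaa
Cnp: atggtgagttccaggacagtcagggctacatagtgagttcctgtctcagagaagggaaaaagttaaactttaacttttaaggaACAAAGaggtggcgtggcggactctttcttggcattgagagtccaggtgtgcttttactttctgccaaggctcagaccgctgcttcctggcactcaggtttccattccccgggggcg
Mag: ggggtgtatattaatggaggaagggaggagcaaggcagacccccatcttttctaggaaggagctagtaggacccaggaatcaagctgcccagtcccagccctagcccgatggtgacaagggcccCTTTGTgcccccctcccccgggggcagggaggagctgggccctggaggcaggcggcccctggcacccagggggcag
Opalin: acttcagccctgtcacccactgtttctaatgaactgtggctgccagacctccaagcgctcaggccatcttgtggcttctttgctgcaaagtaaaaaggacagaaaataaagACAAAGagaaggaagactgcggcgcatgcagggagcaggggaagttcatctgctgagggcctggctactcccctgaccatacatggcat

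The Mobp stretch held 6 SOX cores, all read on the opposite strand, while Cnp, Mag and Opalin held 1 each. At least 1 core was present in 16.5% of 32851 promoters of the same length, and 5 or more cores were present in 2 of them. Promoters of the members are among the 32851, so Mobp is 1 of these 2. The letters CTGGCAC or GTGCCAG, which MYRF binds, were found before Mag and Cnp, against 4.19% of all promoters. In Mag the SOX core and these letters were before starts 1 and 2, whose windows overlap, and neither was before start 3. The shares are of promoters, while members are counted as genes, 8 of them with 10 promoters. The E-box CAGCTG, which is its own reverse complement, was found before none of the 8 members against 13.0% of all promoters. TATAAA or TTTATA was likewise found before none of them, against 12.4%. No motif contains another. These are matches of letters in a short window and were not tested as binding sites.

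Mbp, whose protein binds the inner membrane faces together, had the highest level of the 9. It lies on chromosome 18 from 82475146 to 82585637 in GRCm38. It ran from 3658 CPM over a median of 5406 to 6833 CPM in the labelled knockouts, and from 4976 over 5789.8 to 7302 CPM in the labelled wild types. The 2 ranges overlapped, with KO4 lowest and WT8 highest. Mobp, a second protein of compact myelin, lies on chromosome 9 from 120149707 to 120181484. It ran from 463 over 658 to 829.9 CPM in the labelled knockouts and from 627 over 782 to 1055 CPM in the labelled wild types. It had the widest range of the members, with a highest level 2.28 times the lowest over 16 libraries.

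Cnp, Mal and Cldn11 belong to the membrane layers and their edges. Cnp, a phosphodiesterase that keeps cytoplasmic channels in the sheath open, is on chromosome 11 from 100574904 to 100591729 and ran from 539 over 782 to 950.1 CPM in the labelled knockouts. In the labelled wild types it ran from 756 over 800.1 to 1029 CPM. Mal, a raft protein involved in membrane traffic, is on chromosome 2 from 127633226 to 127656695 and ran from 455 over 650.3 to 752 CPM and from 604 over 759 to 849 CPM in the same order. In 4 labelled wild types Mal was above every labelled knockout, and no labelled group was separated from the other for any member. Cldn11, the claudin of the tight junctions between myelin layers, is on chromosome 3 from 31149920 to 31164324 and ran from 231 over 331 to 417 CPM and from 321 over 372 to 460.2 CPM.

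Mag and Mog sit on the sheath's surfaces. Mag, which faces the axon, is on chromosome 7 from 30899176 to 30914873 and ran from 274 over 394 to 494 CPM in the labelled knockouts and from 352 over 385 to 509 CPM in the labelled wild types. Mog, on the outermost surface, is on chromosome 17 from 37010743 to 37023398 and ran from 119 over 176 to 222 CPM and from 151 over 189 to 261 CPM. Opalin, a glycoprotein of the oligodendrocyte membrane, is on chromosome 19 from 41061710 to 41077113 and ran from 33.2 over 47.6 to 63.4 CPM and from 34.9 over 49.9 to 60.04 CPM. For Opalin, unlike the others, the highest library was a labelled knockout, KO7. Ermn, which encodes the actin-binding protein ermin, is on chromosome 2 from 58045113 to 58052864 and ran from 105 over 142 to 163 CPM and from 119 over 156 to 213 CPM. Its exons share bases with Galnt5 on the opposite strand, and no source used here gives the strand setting of the counting.

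**Figure D1:**
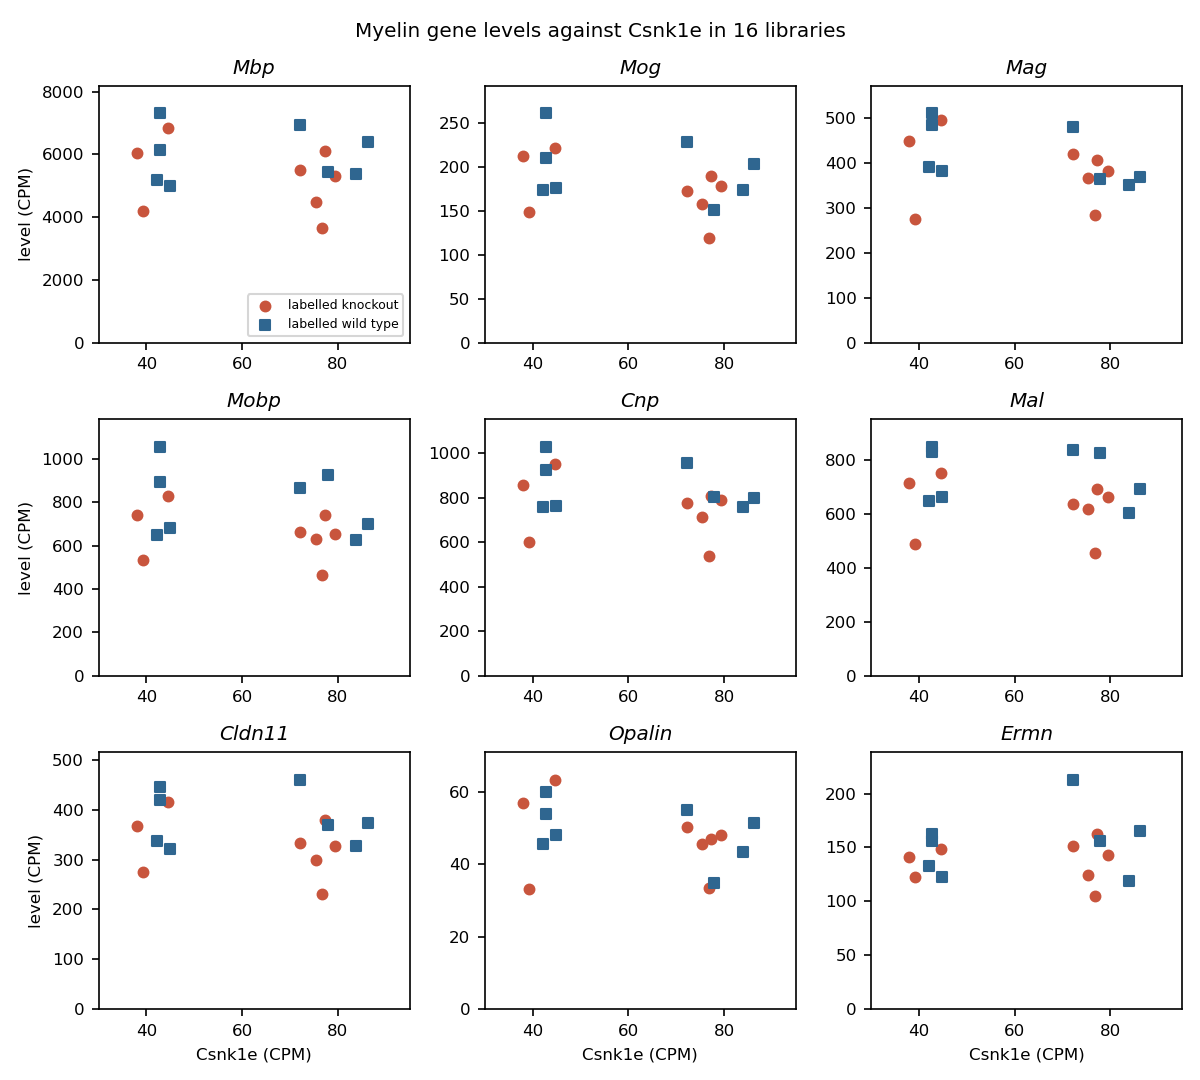
Level of each of the 9 members (vertical axis, CPM, from 0) against the level of Csnk1e (horizontal axis, CPM), with 1 point per library, circles for labelled knockout and squares for labelled wild type. The libraries form a group at 38.0 to 44.9 CPM of Csnk1e and a group at 72.2 to 86.2 CPM, each holds both labels, and the levels of every member overlap between them.

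Levels of different genes can be set in order only per length of exon. On the scale of CPM per kilobase of exon, the order was Mbp at 691 ± 125, Cnp at 340 ± 53.5, Mal at 247 ± 41.9, Cldn11 at 190.1 ± 32.9, Mag at 164 ± 28.6, Mobp at 155 ± 32.6, Mog at 109 ± 20.9, Ermn at 39.98 ± 7.02 and Opalin at 26.2 ± 4.86 (SD, n = 16). Each gene was above the next in 16 of 16 libraries, except Mag over Mobp, which held in 13. Mag and Mobp therefore did not separate beyond their spread. By the length of the longest transcript Mobp stood at 221 CPM per kilobase and moved ahead of Cldn11.

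Levels varied between mice by far more than between lanes. The coefficient of variation over the 16 mice was 15.7% (Cnp) to 21.0% (Mobp), while its median over the lanes of a mouse was 0.62% (Mbp) to 4.79% (Opalin), which also covers the sampling of fewer reads. In bulk tissue, fewer oligodendrocytes and less myelin RNA in each cannot be told apart. The summed level of the 9 members was lowest in KO4 at 5886 CPM and KO8 at 6659 CPM, and highest in WT8 at 11648 CPM and WT7 at 11034 CPM. All 9 members were below their own mean in KO2, KO4, KO8, WT3 and WT4, and all 9 were above it in KO7, WT1, WT7 and WT8.

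The members moved together. Over the 36 pairs, Pearson's r of log2 CPM ran from 0.55 for Opalin with Ermn to 0.97 for Cnp with Cldn11, with a median of 0.87, and Spearman's rho ran from 0.55 to 0.97. All 36 pairs passed a permutation test with 100000 resamples, two-sided, with Benjamini-Hochberg adjusted p from 2.25e-05 to 0.0257 for r and from 6.0e-05 to 0.0296 for rho. The smallest unadjusted p was 1e-05, the smallest these resamples can give. Over 119281735 pairs of tested genes the median r was -0.001, and 4.53% reached the lowest r of the members. Such co-movement was not particular to them: the median r between pairs was 0.85 within 14 striatal projection neuron genes, with 85.7% of pairs at or above the lowest r of the members, and 0.80 within 14 other myelin proteins. Without the 2 libraries farthest from the median of the first gene of a pair, r ran from 0.30 to 0.97 with a median of 0.78, and 33 of 36 pairs stayed at 0.5 or above. Opalin was in each of the pairs under 0.5, which were chosen for mention after their values were seen. Opalin with Mal went from 0.67 to 0.30, with a rho of 0.73 over all 16 libraries. Its r was 0.96 within the labelled knockouts and 0.29 within the labelled wild types, so it depended on which libraries were kept.

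**Figure D2:**
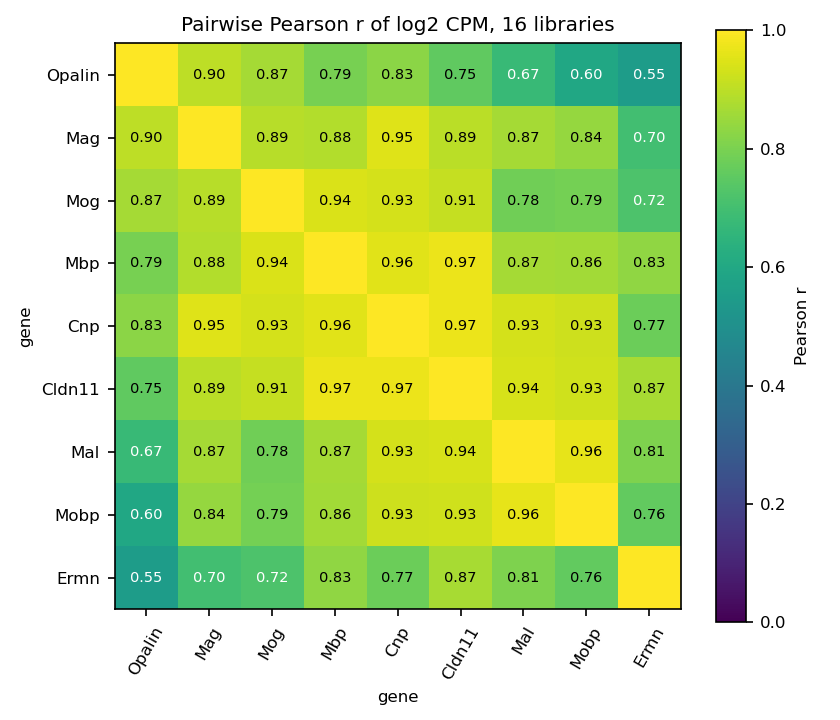
Pearson r of log2 CPM between each pair of the 9 members over 16 libraries, as a colour from 0 to 1 with the value printed in each cell. Cnp and Cldn11 have the highest r at 0.97, and the row of Opalin falls to 0.55 with Ermn and 0.60 with Mobp.

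Cnp followed the others most closely. Its r with the mean of the other 8 members was 0.99, and its residual SD around that line was 0.04 on the log2 scale. Cldn11 came next with an r of 0.98, then Mbp with 0.96. Opalin and Ermn followed least, with r of 0.79 and 0.80 and residual SDs of 0.17 and 0.15. Ermn also had the shallowest slope on the mean of the others, at 0.77 log2 units per unit, against 1.11 for Mobp.

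One library, WT5, split the members. Mobp stood 0.37 and Mal 0.29 above their own means there on the log2 scale, while Opalin stood 0.44 and Mog 0.27 below theirs. The distance from the lowest to the highest member was 0.81 in WT5 and 0.12 to 0.39 in the other 15 libraries. Without WT5 the lowest r of the 36 pairs was 0.68 and the median 0.92. WT5 also had the highest score of striatal projection neuron genes at 0.39, the mean log2 deviation of that list, and the lowest microglial score at -0.21. The part of these in the split was not tested. Within the labelled wild types r ran from 0.21 (Mobp with Opalin) to 0.95 with a median of 0.77, and within the labelled knockouts from 0.74 to 0.99 with a median of 0.95. The difference between labels in r was not tested.

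**Figure D3:**
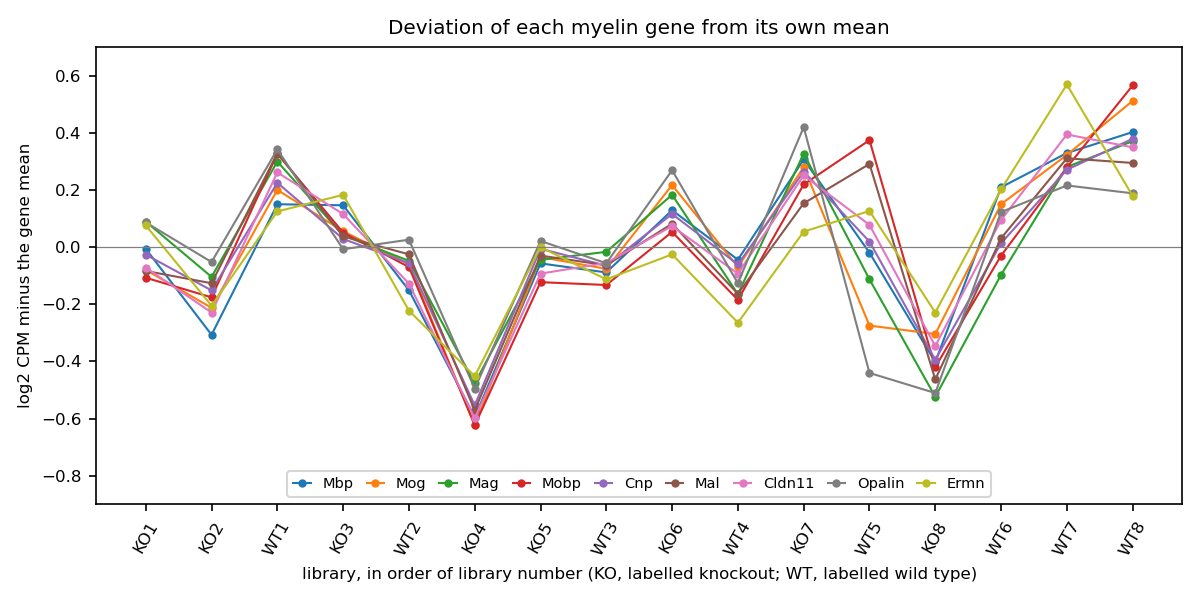
Deviation of log2 CPM of each member from its own mean over 16 libraries (vertical axis) in every library, in the order of the library numbers (horizontal axis), with 1 line per gene. The lines run together, with KO4 and KO8 low and WT7 and WT8 high, and spread apart in WT5, where Mobp is at 0.37 and Opalin at -0.44.

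Between the labels, the members were lower in the labelled knockouts by amounts that did not pass the test. The log2 fold changes were -0.28 for Mobp (SE 0.12, 95% interval -0.54 to -0.03) and -0.24 for Mal (SE 0.10, interval -0.46 to -0.03). They were -0.22 for Cldn11, -0.18 for Mbp, -0.17 for Mog and Cnp, -0.16 for Ermn, -0.12 for Mag and -0.05 for Opalin, with intervals that include 0. In the quasi-likelihood test of edgeR all 9 had an adjusted p of 0.997, and 0 of 9 were called at an adjusted p under 0.05, against 0.0% of all tested genes. Mobp (p = 0.0290) and Mal (p = 0.0267) were under an unadjusted 0.05 in that test of edgeR, against 1.5% of all tested genes on the lower side, and 0 members were so on the higher side, against 1.91%. DESeq2 and limma-voom also called 0 members, and each put 3 under an unadjusted 0.05. Over all genes edgeR called 0, with 295 higher and 231 lower at an unadjusted p under 0.05, DESeq2 called 0, with 248 and 250, and limma-voom called 0, with 278 and 232.

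All 9 fold changes lay below 0, against 49.7% of all tested genes, with a median of -0.17 against 0.0004 over all genes. Since the members vary together between mice, these are not 9 separate observations. The 2 labels' ranges overlapped for every member, and 0.00647% of all tested genes had ranges that did not. The count of 2 at an unadjusted p under 0.05 in edgeR went to 0 without KO4, without KO8, without WT1, without WT8, without KO1 and WT7 together, and with the library number as a covariate. It went to 5 without KO7, to 3 without KO3, KO6, WT2, WT3 or WT4, and to 1 without WT5. The count was also 3 with the mouse number as a replicate block, with no low count filter and with flow cell 1 alone. Opalin's log2 fold change was 0.0032 without KO4 and 0.0053 without KO8.

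**Figure D4:**
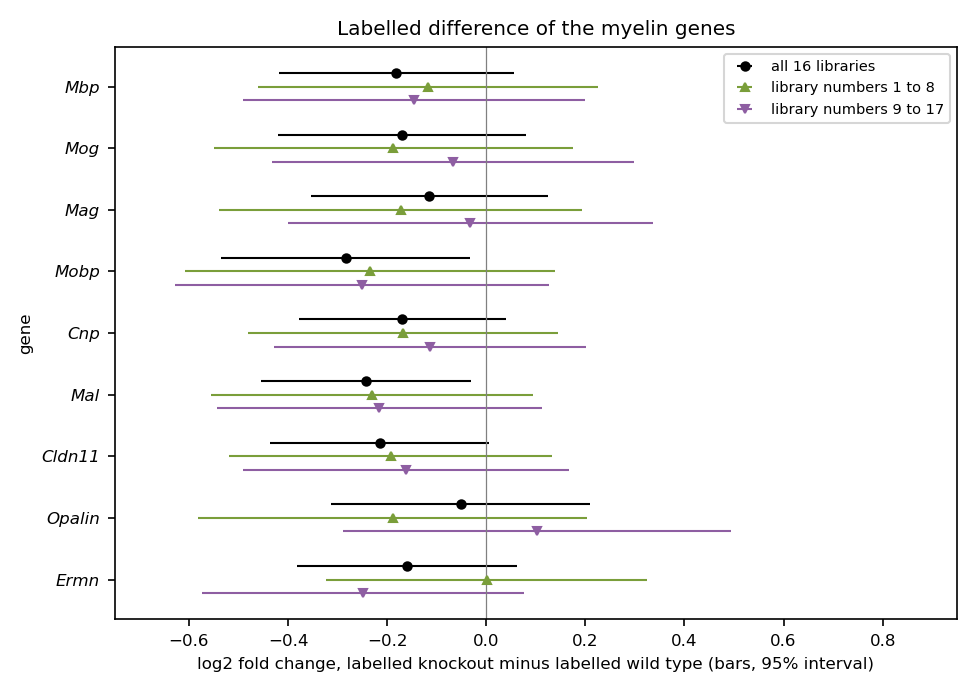
Log2 fold change of each member, labelled knockout minus labelled wild type (horizontal axis), with 95% confidence intervals as bars, over all 16 libraries (circles), in library numbers 1 to 8 (upward triangles) and in library numbers 9 to 17 (downward triangles). Over all libraries the values run from -0.28 for Mobp to -0.05 for Opalin, and the intervals of Mobp and Mal alone exclude 0.

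The labelled difference in Csnk1e had opposite signs in the libraries numbered 1 to 8 and 9 to 17, a division chosen with that fact known. In the first the log2 difference of Csnk1e, labelled knockout minus labelled wild type, was 0.82, and in the second it was -0.84. These 2 values are what the division was chosen on and are given as a description. The labels overlapped in the second, where WT8 at 42.8 CPM of Csnk1e lay within the 38.0 to 44.6 CPM of KO6 to KO8. In the libraries numbered 1 to 8 Mobp was at -0.24, Mal at -0.23, Cldn11 at -0.19 and Mbp at -0.12. In those numbered 9 to 17 the same genes were at -0.25, -0.22, -0.16 and -0.15. Cnp was at -0.17 in the first and -0.11 in the second, Mog at -0.19 and -0.07, and Mag at -0.17 and -0.03. Ermn was at 0.0007 and -0.25, and Opalin at -0.19 and 0.10. The interaction called 0 of 9 members, with edgeR adjusted p of 0.9999 for each, against 0.0259% of all tested genes called. At an unadjusted p under 0.05 in edgeR were 0 of 9, against 1.73% of all tested genes, so that 0 is near the background. Without KO8, Opalin had an interaction of 0.53 with an unadjusted p of 0.0279 in edgeR (adjusted p = 0.997). DESeq2 and limma-voom also called 0 members. The interaction's intervals were wide, from -0.55 to 0.52 for Mobp and from -0.51 to 0.46 for Mbp.

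By level of Csnk1e, the 7 libraries at 38.0 to 44.9 CPM (KO6 to KO8, WT1 to WT3 and WT8) had a summed level of the 9 members of 6659 to 11648 CPM with a median of 9581 CPM. The 9 libraries at 72.2 to 86.2 CPM had 5886 to 11034 CPM with a median of 8706 CPM. These sides are a grouping by a measured level and were not tested against each other. Mbp ran from 4180.2 to 7302 CPM at low Csnk1e and from 3658 to 6940.4 CPM at high Csnk1e. Mobp ran from 533 to 1055 CPM and from 463 to 924 CPM, and Ermn from 122 to 162 CPM and from 105 to 213 CPM.

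Within a side, no relation of a member with Csnk1e passed the test. Over the 7 libraries at low Csnk1e, r ran from 0.20 (Ermn) to 0.43 (Mal) and rho from 0.18 to 0.36. Over the 9 libraries at high Csnk1e, r ran from -0.42 (Mag) to 0.07 (Mbp) and rho from -0.45 to 0.18. In an exact permutation test of pairings, two-sided, the smallest adjusted p over the 18 relations was 0.916 for r and 0.982 for rho. Without the 2 libraries farthest from the median of Csnk1e, r ran from -0.38 to 0.25 at low and from -0.54 to -0.14 at high Csnk1e.

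Most other genes of the mature sheath followed the members, and some did not. Fold changes of genes that vary with the members are not separate observations. Of 14 other myelin proteins, 0 were called between labels, 14 had fold changes below 0 with a median of -0.09, and their mean r with the 9 members had a median of 0.83 in a range from 0.22 (Omg) to 0.90 (Tspan2). Tspan2, a tetraspanin of myelin, stood at 329 ± 49.3 CPM in the labelled knockouts and 375 ± 51.2 CPM in the labelled wild types (SD, n = 8), a log2 fold change of -0.19. Gjc3, a connexin of oligodendrocytes, had a fold change of -0.17. Of 16 genes of oligodendrocyte support and enzymes, 0 were called, 13 were below 0 with a median of -0.12, and the median of mean r was 0.80 in a range from -0.07 (Cdk18) to 0.87 (Slc44a1). Among them the protease gene Adamts4 was at -0.16 and the lipocalin gene Apod at -0.19. In edgeR 0 genes of these lists, of lipid synthesis, of the transcription factors or of nodes and axon contact were under an unadjusted p of 0.05.

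The genes of myelin lipid synthesis had a similar range of likeness to the members. Over 14 genes the median of mean r was 0.71, with Fa2h, which hydroxylates the fatty acids of myelin sphingolipids, at 0.90. The cholesterol synthesis genes Hmgcs1 at 0.13 and Fdft1 at -0.02 followed the members little. None of the 14 was called between labels, and all 14 fold changes were below 0 with a median of -0.10, including -0.12 for Hmgcs1.

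Of 12 genes on a list named for oligodendrocyte transcription factors, 0 were called, and 10 had fold changes below 0 with a median of -0.08. Membership of the list, as for Carhsp1, does not by itself show that a gene encodes such a factor. Sox10, which opens the myelin programme, stood at 60.7 ± 11.4 CPM in the labelled knockouts and 66.4 ± 7.94 CPM in the labelled wild types (SD, n = 8), with a mean r of 0.85 with the members. Carhsp1 had a mean r of 0.83, Olig1 of 0.82, Myrf of 0.81, Nkx6-2 of 0.78 and Olig2 of 0.75. Olig1, which acts in oligodendrocyte maturation, had the lowest fold change of the list at -0.26 (SE 0.13, edgeR adjusted p = 0.997). Zfp536 at 0.61, St18 at 0.60, Nkx2-2 at 0.57, Sox8 at 0.39 and Tcf7l2 at 0.32 followed less. Zfp488 had a mean r of -0.25 at a level of 99.1 ± 6.34 CPM (SD, n = 16).

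Genes of earlier stages of the lineage were less like the members in these medians. The median of mean r was 0.40 over 12 genes of newly formed oligodendrocytes and -0.08 over 12 genes of precursors. The ranges were -0.28 to 0.90 (Bcas1) in the former and -0.58 to 0.56 in the latter. Of the former, 0 were called and 11 were below 0 with a median of -0.07. Cnksr3 was at -0.29 (SE 0.09) and Rras2 at -0.20 (SE 0.08). These were the 2 of the list under an unadjusted p of 0.05 in edgeR, against 1.5% of all tested genes on the lower side. Of the precursor genes, 0 were called and 10 of 12 were above 0 with a median of 0.06. At an unadjusted p under 0.05 in edgeR were 3 higher and 1 lower, against 1.91% and 1.5% of all tested genes. Tnr, an extracellular matrix protein, was at 0.12 and Cspg4, the NG2 proteoglycan that mural cells also express, at 0.19. Tnr had the lowest mean r of the precursor genes with the members, at -0.58, while 5 of the 12 had a mean r above 0. Over 12 genes of nodes and axon contact, some of them neuronal, the median of mean r was 0.18, with Nfasc at 0.69 and Cntnap2 at -0.56, and 0 were called.

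**Figure D5:**
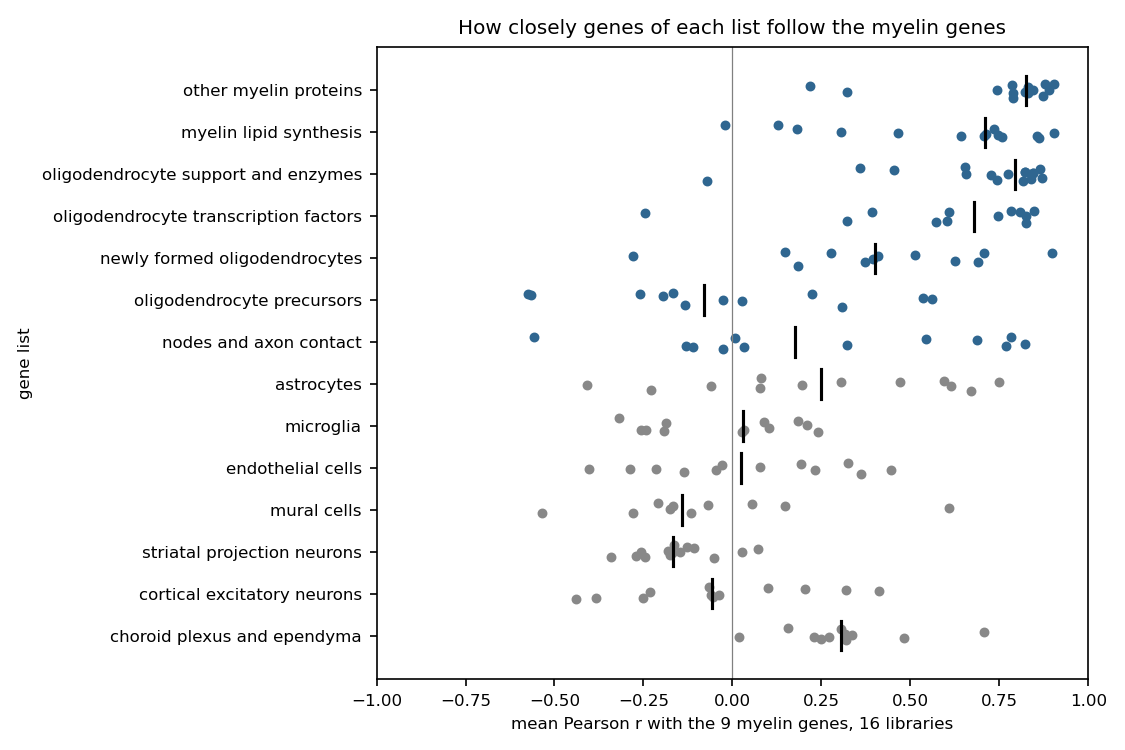
Mean Pearson r of each gene with the 9 members over 16 libraries (horizontal axis), by gene list (vertical axis), with 1 point per gene and a black bar at the median of the list. Blue marks the oligodendrocyte lineage and the list of nodes and axon contact, some of whose genes are neuronal. Grey marks other cell types. The medians run from 0.83 for other myelin proteins to -0.08 for oligodendrocyte precursors and -0.17 for striatal projection neurons.

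Among 14229 genes at a mean of 1 CPM or more, the 10 most like the members were Prr18 at a mean r of 0.91, Cdc42ep2, Tspan2 and Fa2h at 0.91, 0.90 and 0.90, Bcas1 at 0.90, Gjb1 at 0.89, Plekhb1 and Rnf130 at 0.88, and Frmd8 and Pllp at 0.87. Tspan2, Fa2h, Bcas1, Gjb1, Plekhb1 and Pllp were on the lists above, and the median over all ranked genes was -0.01. A mean r of 0.8 or more was reached by 95 genes. The 5 least like were Ttpal at -0.85, Ica1l and Tnfaip8l3 at -0.84, Rgl1 at -0.83 and Pnma2 at -0.82. Levels scaled to a common total share that total, and these correlations over 16 libraries are given as a description.

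Markers of other cells in the punch moved with the members to different degrees. For 12 astrocyte genes the r of a member with the list score ran from 0.40 (Mobp) to 0.72 (Opalin) and rho from 0.51 to 0.72, and 0 of the 9 relations passed the permutation test, with a smallest adjusted p of 0.119 over 63 relations. At an unadjusted permutation p under 0.05 were 7 of the 9, all but Mal and Mobp. The astrocyte genes were not alike, and 9 of the 12 had a mean r with the members above 0. S100b, which oligodendrocytes also express, was at 0.75, Gfap at 0.67, Ntsr2 at 0.61 and Gjb6 at 0.59. Acsbg1 was at 0.47, Aldh1l1 at 0.30, Sox9 at 0.20, and Fgfr3 and Gja1 at 0.08. The glutamate transporter genes Slc1a2 and Slc1a3 had -0.41 and -0.23, and the water channel gene Aqp4 had -0.06. Without KO7, Opalin with the astrocyte score had an r of 0.81 and an adjusted p of 0.0252 by permutation. For 14 striatal projection neuron genes r ran from -0.40 to 0.04, and for 12 microglial genes from -0.25 to 0.18. It ran from -0.11 to 0.29 for 12 endothelial genes, from -0.27 to 0.08 for 10 mural genes and from -0.26 to 0.07 for 12 genes of cortical excitatory neurons. For 11 choroid plexus and ependymal genes r ran from 0.20 to 0.57, and from 0.17 to 0.37 without KO1 and WT7. None of the 63 relations was called over 16 libraries, and 8 had an unadjusted p under 0.05 by permutation.

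Between the labels the striatal projection neuron score ran from -0.22 to 0.28 in the labelled knockouts and from -0.34 to 0.39 in the labelled wild types. All 14 of its genes had fold changes above 0, with a median of 0.08, where all 9 members were below 0. Over all tested genes 7763 of 15446 were above 0. With a median r of 0.85 between pairs, the 14 genes are not 14 separate observations. In edgeR 0 of the 14 were under an unadjusted p of 0.05. Of 12 microglial genes 10 were above 0 (median 0.08) and of 10 mural genes 9 (median 0.12). Of each list, 3 were higher at an unadjusted p under 0.05 in edgeR, against 1.91% of all tested genes. Cspg4 is 1 of these 3 mural genes and also 1 of the 3 higher precursor genes. The median r between pairs was 0.55 within the microglial, 0.30 within the mural and 0.32 within the precursor genes. Genes of 1 list are therefore not separate observations in these counts. Of 12 genes of cortical excitatory neurons 11 were below 0 (median -0.11), and of 11 choroid plexus and ependymal genes 10 (median -0.42). Of each list, 1 was lower at an unadjusted p under 0.05 in edgeR, against 1.5% of all tested genes. The choroid plexus and ependymal fold changes were uncertain, with an SE as high as 1.48. Their score had medians of -0.32 in the labelled knockouts and -0.31 in the labelled wild types, with KO1 at 2.04 and WT7 at 2.70. Of 12 endothelial genes 9 were above 0 (median 0.02), and of 12 astrocyte genes 7 were below 0 (median -0.03). None of these genes was called, and their part in the labelled difference of the members was not tested. The astrocyte score ran from -0.17 to 0.12 and from -0.16 to 0.14 in the same order. Among genes of Schwann cells, which make peripheral myelin, Prx was at 1.59 to 3.30 CPM and Pmp2 at 0 to 5 reads per library. Ncmap was at 0.77 to 1.73 CPM, Egr2, which active neurons also express, at 2.06 to 11.6 CPM, and Drp2 at 102 to 126 CPM.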

How the data were processed

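Poly(A) RNA of striatal punches from 16 mice was sequenced as single-end reads of 50 bases on 2 flow cells. The authors deposited 64 files of whole-number read counts per gene, 1 per mouse and lane. Per the submitters' processing notes, the build was mm10 and the tools included HTSeq 0.6.1p1, TopHat2 2.0.0, FastQC 0.10.1 and edgeR 2.14, with no role given. No source used here gives the annotation or the strand setting of the counting. Summary lines that name no gene were left out of library sizes. They held reads in no gene (18.0% to 19.8%), ambiguous reads (0.77% to 0.83%) and reads with several alignments (21.1% to 22.9%).

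The 4 lanes of a mouse were summed, so the mouse is the replicate, with 22088005 to 30238947 gene reads each. Labels were compared by edgeR 4.0.16 (R 4.3.3) with its two-sided quasi-likelihood F test and TMM scaling on 15446 genes kept by filterByExpr, and p-values were adjusted over all of them by Benjamini-Hochberg with a threshold of 0.05. DESeq2 1.42.0 and limma-voom 3.58.1 were alternatives. Log2 CPM used a prior count of 2. Correlations used Python 3.11.15 with numpy 2.4.6 and scipy 1.17.1. Gene positions came from GENCODE M21 and promoters from RefSeq. The scripts were tested on simulated data.

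The members, gene lists and division of the library numbers were chosen with earlier results of these data known. Genes named were Csnk1e, the members, the 10 most and 5 least like them, all listed transcription factors, and the 2 genes of each other lineage list with the smallest p, of which 1 is not reported here. Fdft1, Omg, Cdk18, Slc44a1 and the genes of astrocytes and Schwann cells were named after their values were seen. Other alternatives were 3 other scalings, a replicate block by mouse number, 2 other low count filters, the library number as a covariate, single flow cells, other correlation measures and leaving out libraries.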

Additional observations from a re-analysis of the deposited data

How the results depend on the processing

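Of 252 values of the members' fold changes under alternatives, 250 kept their direction and stayed uncalled. The other 2 are Opalin, at 0.0032 without KO4 and 0.0053 without KO8, in a range of -0.12 to 0.0053 as each library was left out. Sizes moved by over 1.5 times for some. With the library number as a covariate Mbp went to -0.10, Mog to -0.09 and Ermn to -0.08. Mag was -0.07 without KO4, -0.18 without KO7, -0.06 without KO8 and -0.07 without WT8. Mog was -0.11 without KO4 and -0.10 without WT8. Ermn was -0.08 without WT7 and -0.10 without KO1 and WT7. No alternative called a gene or a member between labels, and none called a member in the interaction. The count of genes called in the interaction, 4 over all libraries, was 13 with DESeq2, 2 with flow cell 1 alone, 2 with flow cell 2 alone, 0 without KO1 and WT7, and 0 to 12 when each library was left out in turn, with 0 without KO6, WT1 or WT2, 2 without KO7 or KO8, and 12 without WT8. The cause was not tested. With the mouse number as a replicate block it was 0. The numbers do not pair the samples: deviations of same-numbered mice correlated at -0.34 to 0.10, and no mouse correlated best with its own number. With the block 0 members were called between labels, with 3 of them under an unadjusted p of 0.05. In the interaction with the block 0 members were called and all 9 were below 0, with a median of -0.16 against 0.03 without it. Ermn was then at -0.47 (edgeR unadjusted p = 0.0035, adjusted p = 0.99999). Member pairs called were 34 to 36 and their lowest r 0.41 to 0.68 as each library was left out, with 0.41 without KO4 and 0.68 without WT5. Relations with other cell types called were 0 to 1, with 1 without KO7. Read counts of at least 788 per library for the members leave counting error small beside the spread between mice.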
